A study of Mus musculus with 12 samples.

Results

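The genes described are 38 mouse genes of amino acid supply and of the integrated stress response. They were chosen by symbol from what is known of the pathway, but with earlier results of these data known. The shares of all genes set beside their counts below are thus a description, not independent support. Of the 38, 36 were found in both deposited tables, which list 10405 genes for regulatory T cells (Treg) and 9886 for conventional T cells (Tcon). The other two, Asns and Chac1, are not analysed here. RNA-seq libraries, 12 in all, came from CD4+CD25+FOXP3+ Treg and naive CD4+ Tcon of B6.Cg-Foxp3tm2Tch/J (FOXP3-IRES-GFP) mice, in which the Foxp3 locus also drives GFP. Mice were given SAH-FOXP3(229-259)C, a stapled helical peptide made on a stretch of the Treg transcription factor FOXP3, at 25 mg/kg, or vehicle (DMSO in the sample titles), by daily i.p. injection over 2 days. Each cell type had 2 SAH libraries and 1 vehicle library from spleen (SAH libraries 5 and 6, vehicle library 4) and the same from lymph node (SAH libraries 2 and 3, vehicle library 1). A pair of SAH values stands for libraries 5 and 6 in spleen, or 2 and 3 in lymph node. The labels do not say that libraries came from separate mice, so the p-values below measure no more than how these samples vary, and part of that may be technical.

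The integrated stress response is a relay in which kinases that sense amino acid shortage, misfolded protein or other stress phosphorylate the initiation factor eIF2alpha, which slows most translation and favours that of the transcription factor ATF4. ATF4, with C/EBP partners, raises genes that import amino acids, make serine and glycine, and charge tRNAs, together with genes that restrain growth or end the response by dephosphorylating eIF2alpha. T cells draw on the same transporters and synthetic enzymes when they are activated, and the leucine carrier SLC7A5 with its partner SLC3A2 is the best known of them in these cells.

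Libraries held 36442420 to 48888678 reads in listed genes. The deposited unit is CPM, a read count scaled to library size, and 1 read was worth at most 0.0267 CPM, while the lowest member, Atf5 in Treg, averaged 3.83 CPM. Foxp3 read 655 to 726 CPM in Treg libraries and 19.6 to 24.9 CPM in Tcon libraries.

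Promoters of the members were read for elements of the pathway, and the 6 printed here carry 1 full match each to a searched form, or 2 in Slc7a11. Windows of 250 bases before a transcription start, 1 or more a gene, were found for 29 of the 36 genes in RefSeq (GRCm38.p6), and not for Slc7a5, Slc1a5, Ppp1r15b, Cars, Lars, Nars and Wars. The C/EBP-ATF response element, searched as TGATGNAA on both strands, lay in a window of 5 of the 29 genes (17.2%), Herpud1, Slc7a11, Aars, Gars and Tars, and of 3.91% of all 27025 genes with a window (3.45% of all 32851 windows). A cyclic AMP response element, TGACGTCA, lay in the window of Ppp1r15a (1 of 29 genes, against 1.77% of all genes), and the unfolded protein response element TGACGTGG in that of Slc7a6 (1 of 29, against 0.603% of all genes). The endoplasmic reticulum stress element, a longer sequence searched the same way, was found in full for none of the 29 genes and for 0.13% of all genes. The Herpud1 window ends with all of its fixed letters but the last, and bases past the start were not searched. Other forms of this element were not searched. The last 120 bases before the start are printed 5′ to 3′ on the gene's strand for the C/EBP-ATF genes and Ppp1r15a, with the matches in capitals. A match on the opposite strand reads TTGCATCA or, in Gars, TTTCATCA. The C/EBP-ATF matches begin 112 bases before the start in Herpud1 and Aars, 66 and 47 bases before it in Slc7a11, 30 in Gars and 15 in Tars. The printed stretches lie, line by line, at chr3:50443614-50443733 (minus strand), chr8:94386309-94386428 (plus), chr8:111033722-111033841 (plus), chr15:11399659-11399778 (minus), chr6:55037881-55038000 (plus) and chr7:45526269-45526388 (minus). A match describes letters in the window and is not a measured binding site.
Slc7a11: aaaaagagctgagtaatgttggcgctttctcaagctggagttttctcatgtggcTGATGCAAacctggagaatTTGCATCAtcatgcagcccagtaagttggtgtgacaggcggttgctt
Herpud1: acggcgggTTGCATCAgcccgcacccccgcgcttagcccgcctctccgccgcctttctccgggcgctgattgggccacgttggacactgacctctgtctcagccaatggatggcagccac
Aars: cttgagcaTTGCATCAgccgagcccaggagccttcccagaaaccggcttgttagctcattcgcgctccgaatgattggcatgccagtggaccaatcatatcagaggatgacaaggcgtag
Tars: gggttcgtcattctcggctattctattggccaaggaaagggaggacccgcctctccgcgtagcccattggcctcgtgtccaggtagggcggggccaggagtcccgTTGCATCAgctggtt
Gars: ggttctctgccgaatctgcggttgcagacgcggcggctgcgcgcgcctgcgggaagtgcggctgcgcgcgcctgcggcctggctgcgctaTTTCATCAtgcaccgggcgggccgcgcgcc
Ppp1r15a: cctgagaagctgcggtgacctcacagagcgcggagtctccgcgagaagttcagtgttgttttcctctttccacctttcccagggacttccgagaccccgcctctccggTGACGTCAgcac

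Whether the peptide moved these genes was asked within each cell type in a limma model of log2(CPM + 1) with organ and treatment as terms, and a gene was called where the p-value adjusted by Benjamini-Hochberg over the whole table was below 0.05. In Treg none of the 36 genes was called after SAH, where 0.202% of all genes were (21 of 10405), and 10 had an unadjusted p below 0.05, all higher with SAH, against 4.38% of all genes higher at that level. In Tcon 7 genes rose and 0 fell, where 1.04% of all genes were called (103 of 9886), 0.88% as higher. They were Atf4, Ddit3, Ppp1r15a, Sesn2, Slc7a5, Slc38a2 and Iars, at 1.22-fold to 1.51-fold of vehicle. At an unadjusted p below 0.05, 26 of the 36 were higher in Tcon, against 7.89% of all genes. The median log2 change of the 36 was 0.08 in Treg (0.00 over all genes) and 0.24 in Tcon (-0.00 over all genes), and 30 were above 0 in Treg and 35 in Tcon, where 51.8% of Treg genes and 48.9% of Tcon genes were. In the authors' deposited table, 1 gene of the set was called in Treg (Ddit4, log2 fold change 0.30, FDR 0.03; 0.471% of all genes called) and 17 in Tcon, all higher (3.21% of all genes called). With limma-voom on the recovered reads, 0 were called in Treg (0.211% of all genes) and 4 in Tcon (0.759% of all genes). In these bulk samples fewer cells of a type and less RNA per cell cannot be told apart.

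Both SAH libraries lay above the vehicle library of their organ, in spleen and in lymph node alike, for 20 of the 36 genes in Treg (13.4% of all Treg genes) and for 32 in Tcon (16.6% of all Tcon genes). All 4 SAH libraries lay above both vehicle libraries for 7 genes in Treg (5.01% of all), Ddit3, Slc7a11, Aars, Sars, Wars, Tars and Cars, and for 27 in Tcon (10.0% of all). None of the 36 lay below in the same way in either cell type. Below vehicle in each organ lay 11.7% of Treg and 16.7% of Tcon genes, and below both vehicle libraries 4.99% and 9.53%.

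**Figure D1:**
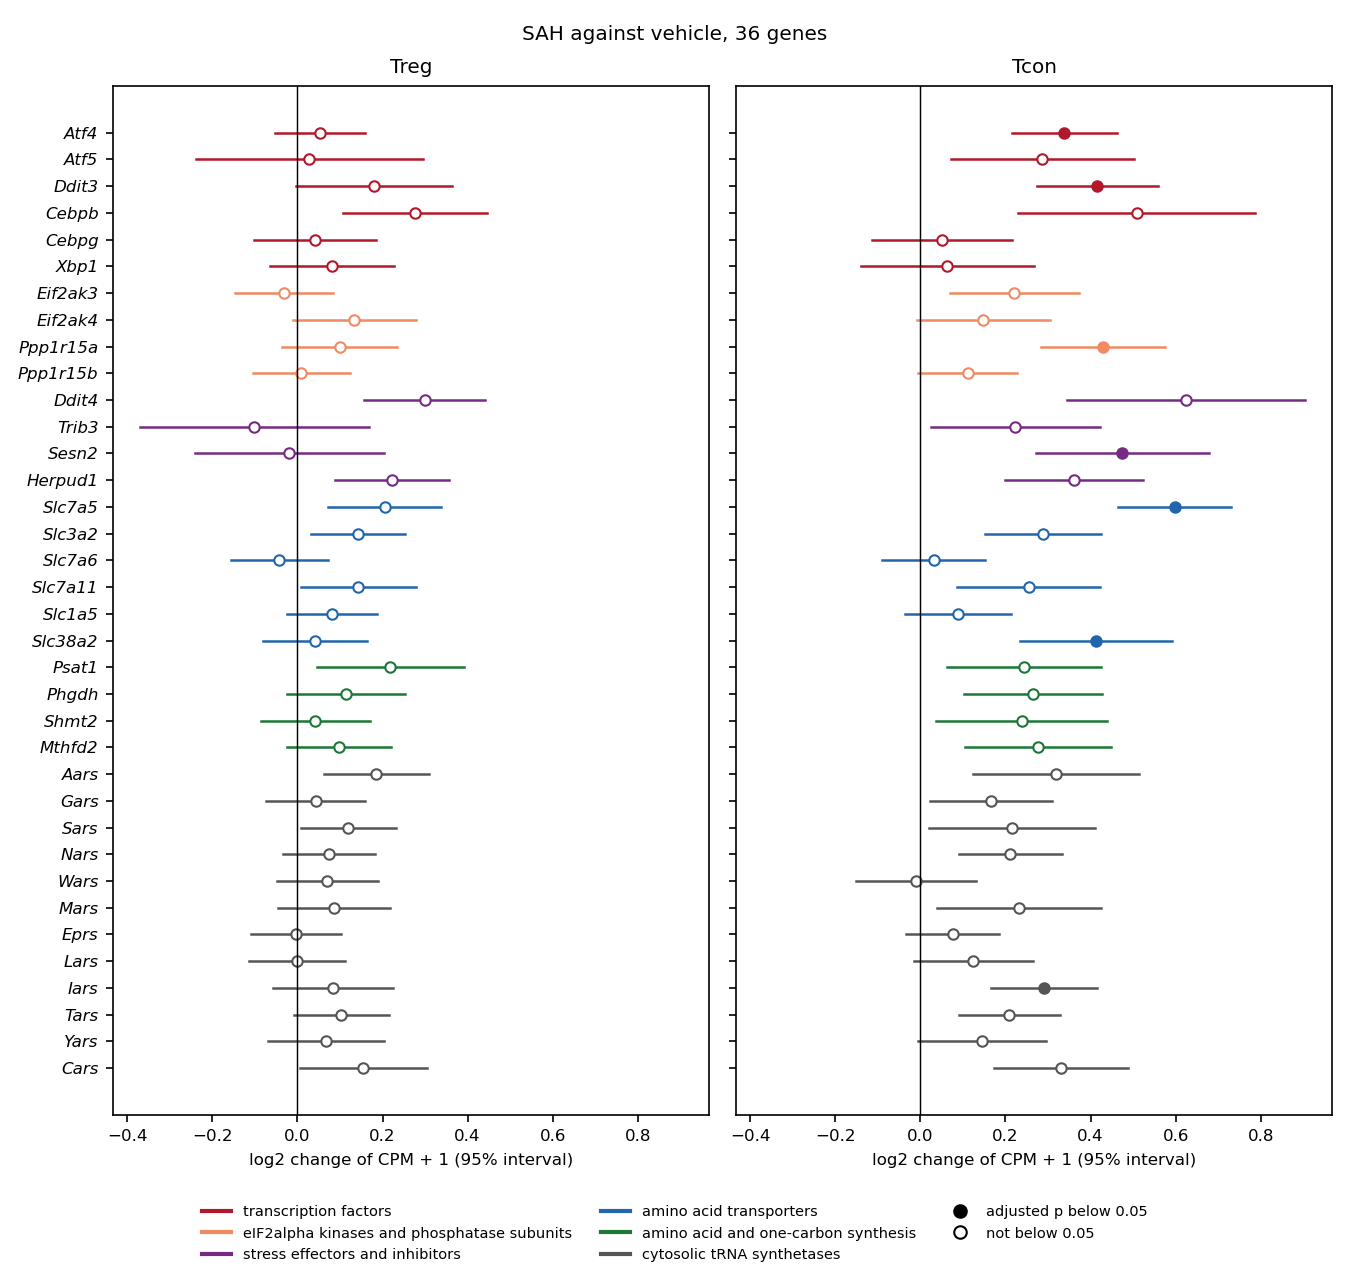
Log2 change of CPM + 1 with SAH against vehicle for the 36 genes, Treg on the left and Tcon on the right, as points with 95% intervals of the limma model, coloured by role and filled where the adjusted p was below 0.05. Points in Tcon run from -0.01 (Wars) to 0.62 (Ddit4) with 7 filled, and in Treg from -0.10 (Trib3) to 0.30 (Ddit4) with none filled.

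The count of 7 in Tcon depended on single libraries. It was 4 without spleen SAH library 5 (0.668% of all genes called), 1 without spleen SAH library 6 (0.324%) and 1 without spleen vehicle library 4 (0.152%). It was 10 without lymph node SAH library 2 (2.29% of all genes called), 1 without lymph node SAH library 3 (0.111%) and 3 without lymph node vehicle library 1 (0.303%), so that the share of all genes moved with it. Slc7a5 alone was called in all 6 of these fits and in all 8 other settings tried. In Treg, 3 genes (Ddit4, Slc7a5 and Psat1) passed when spleen SAH library 6 was left out, where 0.913% of all genes were called.

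**Figure D2:**
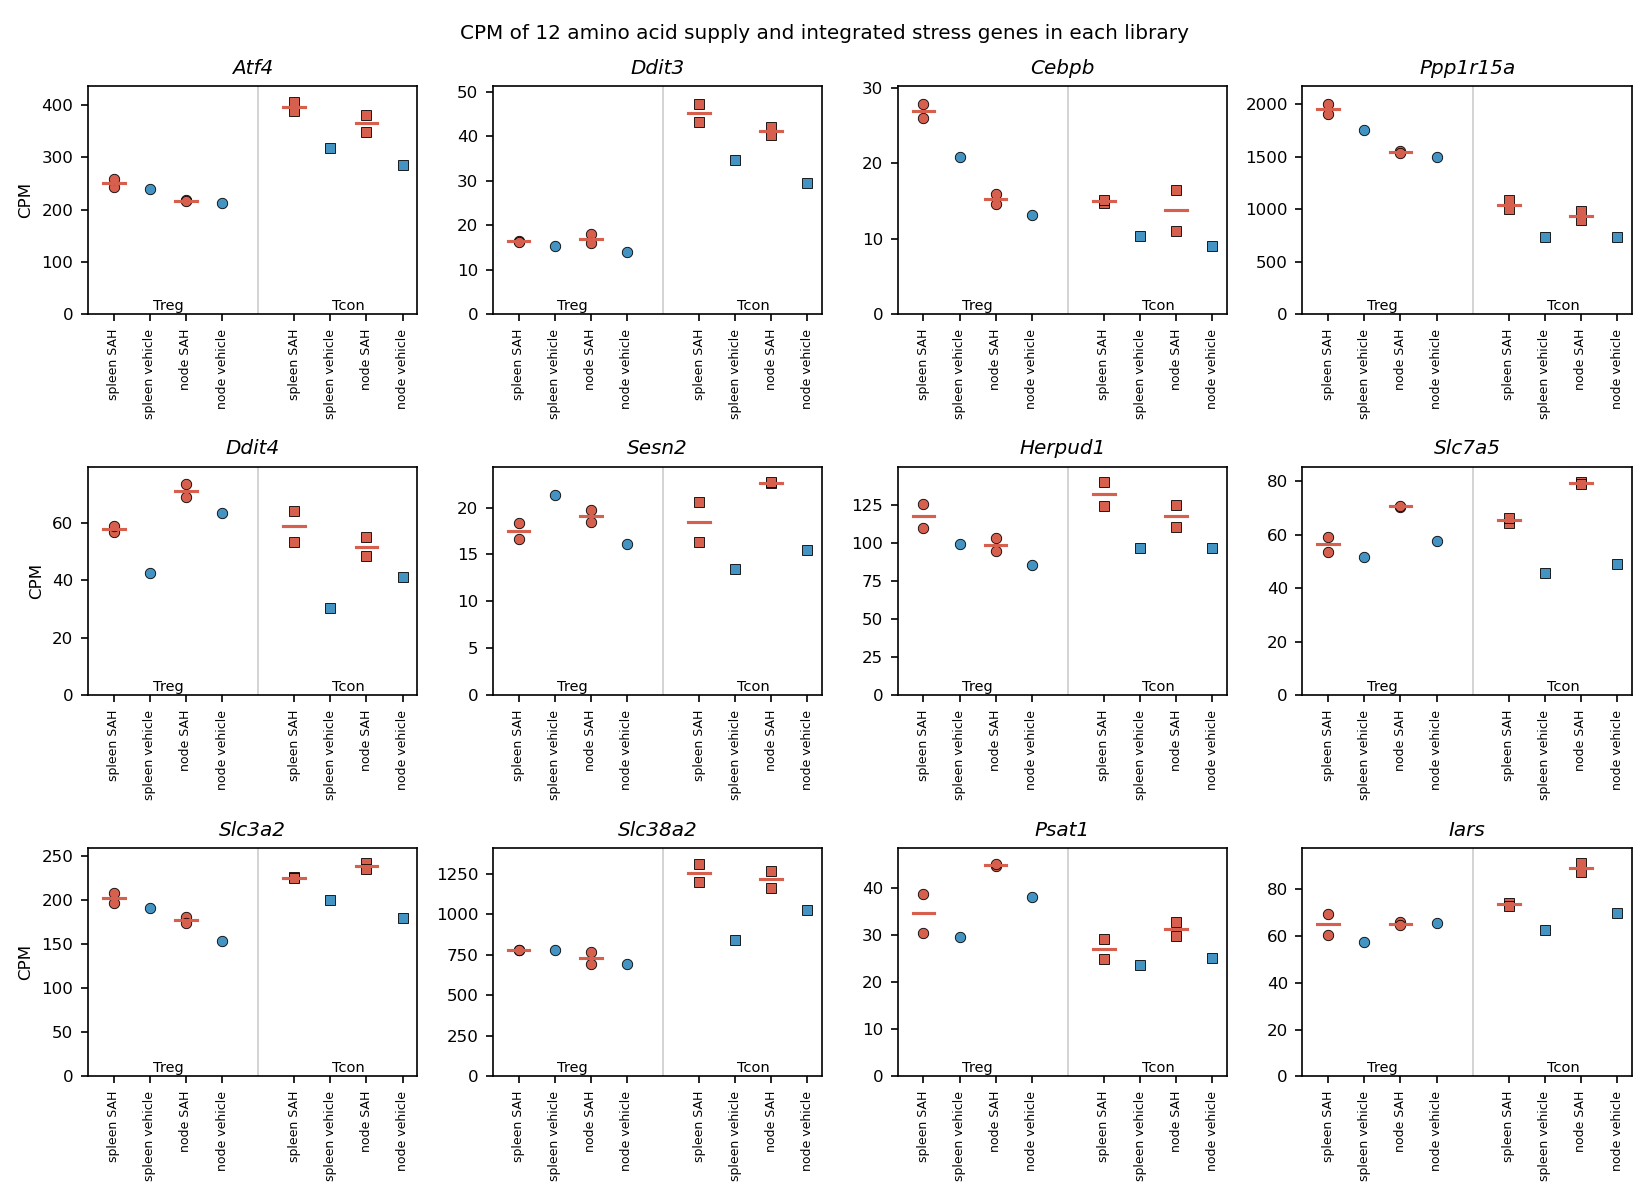
CPM in each library for 12 genes chosen by their calls or p-values, with Treg (circles) left of Tcon (squares), spleen left of lymph node, and SAH (red) left of vehicle (blue). Bars mark the mean of 2 SAH libraries. Slc7a5 in Tcon stands at 64.5 to 79.6 CPM in SAH libraries and at 45.6 and 49.0 CPM in vehicle libraries.

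Of the 6 transcription factors, Atf4 and Ddit3 rose in Tcon and none of the 6 was called in Treg (median log2 change 0.31 in Tcon, 0.07 in Treg). Atf4, the factor that drives the amino acid genes, stood in Treg at 244 and 259 CPM with SAH against 239 CPM with vehicle in spleen, and 218 and 217 CPM with SAH against 212 CPM with vehicle in lymph node. In Tcon, Atf4 stood at 388 and 406 CPM with SAH against 317 CPM with vehicle in spleen, and 349 and 382 CPM with SAH against 286 CPM with vehicle in lymph node. All 4 SAH libraries of Tcon were above both vehicle libraries, while the Treg values split by organ, with every spleen library above every lymph node library. The change with SAH in Treg was 1.04-fold (log2 change 0.05, 95% interval -0.05 to 0.16, limma adjusted p = 0.918), and in Tcon Atf4 rose 1.26-fold (log2 change 0.34, 95% interval 0.21 to 0.46, limma adjusted p = 0.0231). Its call in Tcon was lost in 5 of the 6 fits that left a library out, where the log2 change was 0.31 to 0.36. Atf4 lies at chr15:80255184-80257541 on the plus strand of mm10.

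Ddit3 encodes CHOP, a C/EBP family factor that ATF4 induces. Its level in Treg was 16.4 and 16.3 CPM with SAH against 15.3 CPM with vehicle in spleen, and 18.1 and 15.9 CPM with SAH against 13.9 CPM with vehicle in lymph node. In Tcon, Ddit3 measured 43.2 and 47.1 CPM with SAH against 34.7 CPM with vehicle in spleen, and 42.0 and 40.2 CPM with SAH against 29.5 CPM with vehicle in lymph node. SAH libraries were above both vehicle libraries in each cell type, by a smaller margin in Treg. Ddit3 rose 1.33-fold in Tcon (log2 change 0.42, 95% interval 0.27 to 0.56, limma adjusted p = 0.0188), and the change in Treg did not pass (log2 change 0.18, 95% interval -0.00 to 0.36, limma adjusted p = 0.714). The 3′ ends of Ddit3 and Mars overlap on opposite strands in the annotation, and whether counting used strand is not given in the sources used here, so a few reads of either could belong to the other.

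Cebpb, a C/EBP factor that dimerizes with ATF4 and CHOP, was a low-level gene in both cell types. Treg libraries held 27.9 and 26.0 CPM with SAH against 20.9 CPM with vehicle in spleen, and 14.6 and 15.9 CPM with SAH against 13.1 CPM with vehicle in lymph node. Tcon libraries held 14.8 and 15.2 CPM with SAH against 10.4 CPM with vehicle in spleen, and 11.1 and 16.4 CPM with SAH against 9.07 CPM with vehicle in lymph node. SAH lay above vehicle within each organ in both, and in Tcon also across organs, but lymph node SAH libraries 2 and 3 of Tcon were far apart. Neither change passed the limma test (Treg 0.28, adjusted p = 0.37; Tcon 0.51, adjusted p = 0.0933).

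The 3 remaining factors were not called in either cell type. Atf5, a relative of Atf4 that the response also induces, was at 3.53 to 4.15 CPM in SAH and 3.60 to 3.93 CPM in vehicle libraries of Treg, and at 4.92 to 5.43 CPM in SAH and 3.80 to 4.24 CPM in vehicle libraries of Tcon (log2 change 0.03 in Treg and 0.29 in Tcon). Cebpg, a short C/EBP protein that pairs with ATF4, had a log2 change of 0.04 in Treg and 0.05 in Tcon. Xbp1, the unfolded protein response factor whose RNA is spliced under endoplasmic reticulum stress, stood in Treg at 100.5 and 96.5 CPM with SAH against 105 CPM with vehicle in spleen, and 96.7 and 97.6 CPM with SAH against 81.3 CPM with vehicle in lymph node. In Tcon, Xbp1 stood at 110.0 and 104 CPM with SAH against 118 CPM with vehicle in spleen, and 110.0 and 126 CPM with SAH against 97.8 CPM with vehicle in lymph node. SAH libraries were thus below vehicle in spleen and above it in lymph node in both cell types. The difference of the SAH effect between spleen and lymph node was -0.34, adjusted p = 1.0 in Treg and -0.41, adjusted p = 0.913 in Tcon by the interaction term of limma, and neither passed. Plasma cells carry much Xbp1, and their listed markers (2 of 10, Jchain and Txndc5) summed in Tcon to 79.6 and 80.9 CPM in spleen SAH libraries against 151.2 CPM in spleen vehicle, and to 44.0 and 39.5 CPM in lymph node SAH libraries against 42.1 CPM in lymph node vehicle. In Treg, 3 listed plasma cell markers summed to 125.5 and 178.7 CPM in spleen SAH libraries against 163.5 CPM in spleen vehicle, and to 55.4 and 49.5 CPM in lymph node SAH libraries against 54.8 CPM in lymph node vehicle. Their part in the Xbp1 values was not tested.

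Among the 4 genes that add or remove the phosphate of eIF2alpha, Ppp1r15a rose in Tcon. It encodes GADD34, the inducible subunit that brings a phosphatase to eIF2alpha and so ends the response. Ppp1r15a was in Treg at 1906 and 2004.5 CPM with SAH against 1750.0 CPM with vehicle in spleen, and 1549.6 and 1530.0 CPM with SAH against 1499 CPM with vehicle in lymph node. In Tcon, Ppp1r15a was at 1001 and 1083 CPM with SAH against 731 CPM with vehicle in spleen, and 986 and 894 CPM with SAH against 737 CPM with vehicle in lymph node. Tcon SAH libraries were all above the vehicle libraries, which differed little between organs, whereas in Treg the spleen libraries were above the lymph node ones whatever the treatment. Ppp1r15a rose 1.35-fold in Tcon (log2 change 0.43, 95% interval 0.28 to 0.58, limma adjusted p = 0.0188) and stood at 1.07-fold in Treg (log2 change 0.10, 95% interval -0.04 to 0.23, limma adjusted p = 0.868). Per kilobase of annotated exon it was the highest of the 35 members with a length, at 581 ± 73.0 CPM per kb in Treg and 308 ± 49.6 CPM per kb in Tcon (SD over 6 libraries each), ahead of Atf4 (98.3 ± 7.93 in Treg, 150 ± 19.6 in Tcon) and Slc38a2 (84.7 ± 4.95 in Treg, 128 ± 19.9 in Tcon). At the low end Trib3 averaged 1.83 and Atf5 1.92 CPM per kb in Treg, and Atf5 2.39 CPM per kb in Tcon. The tables of the 2 cell types were normalized separately and these levels were not tested between them. Ppp1r15a lies at chr7:45522916-45526268 on the minus strand.

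Its constitutive counterpart Ppp1r15b, the PERK kinase gene Eif2ak3 and the GCN2 kinase gene Eif2ak4, which senses uncharged tRNA, were not called. Eif2ak3 read 103 and 111 CPM in spleen SAH libraries of Tcon against 98.4 CPM in spleen vehicle, and 99.5 and 109 CPM in lymph node SAH libraries against 82.9 CPM in lymph node vehicle (log2 change 0.22, adjusted p = 0.172 by limma; Treg -0.03). The log2 change of Ppp1r15b was 0.01 in Treg and 0.11 in Tcon, and that of Eif2ak4 was 0.13 in Treg and 0.15 in Tcon.

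The 4 stress effectors and inhibitors had the largest median change of the 6 roles in Tcon (log2 0.42, against 0.10 in Treg), with Sesn2 called. Sesn2, a leucine-sensing restraint on the growth kinase mTORC1, was in Treg at 16.6 and 18.3 CPM with SAH against 21.3 CPM with vehicle in spleen, and 19.7 and 18.5 CPM with SAH against 16.1 CPM with vehicle in lymph node. In Tcon, Sesn2 was at 16.3 and 20.6 CPM with SAH against 13.4 CPM with vehicle in spleen, and 22.6 and 22.7 CPM with SAH against 15.4 CPM with vehicle in lymph node. Every Tcon SAH library was above both vehicle libraries, while in Treg SAH lay below vehicle in spleen and above it in lymph node. Sesn2 rose 1.39-fold in Tcon (log2 change 0.47, 95% interval 0.27 to 0.68, limma adjusted p = 0.0469). Its Tcon call held in 5 of the 8 other settings that kept all libraries and was lost with limma-voom. In Treg the log2 change was -0.02 (95% interval -0.24 to 0.20). Without spleen vehicle library 4 the Treg value was 0.23, and without spleen SAH library 5 it was 0.05.

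Ddit4, or REDD1, another inhibitor of mTORC1, had the largest SAH change of the 36 in both cell types. Treg libraries stood at 56.8 and 58.7 CPM with SAH against 42.5 CPM with vehicle in spleen, and 73.4 and 68.9 CPM with SAH against 63.3 CPM with vehicle in lymph node. Tcon libraries stood at 53.2 and 64.1 CPM with SAH against 30.3 CPM with vehicle in spleen, and 48.3 and 55.1 CPM with SAH against 41.0 CPM with vehicle in lymph node. SAH lay above the vehicle library of its organ in all 8 SAH libraries, and the vehicle libraries of the 2 organs were far apart. Ddit4 was 1.23-fold of vehicle in Treg (log2 change 0.30, 95% interval 0.16 to 0.44, limma adjusted p = 0.126) and 1.54-fold in Tcon (log2 change 0.62, 95% interval 0.34 to 0.90, limma adjusted p = 0.0522), neither past the threshold. In Tcon the change was 0.92 (limma adjusted p = 0.0152) without lymph node vehicle library 1, 0.71 (0.0162) without lymph node SAH library 2 and 0.32 (0.426) without spleen vehicle library 4. The authors' deposited table gives Ddit4 an FDR of 0.03 in Treg and 0.0175 in Tcon.

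Herpud1, a component of the machinery that removes misfolded proteins from the endoplasmic reticulum, was close to the threshold in Tcon. Its Treg values were 109.6 and 126 CPM with SAH against 99.3 CPM with vehicle in spleen, and 94.5 and 103 CPM with SAH against 85.5 CPM with vehicle in lymph node. Its Tcon values were 125 and 139.9 CPM with SAH against 96.7 CPM with vehicle in spleen, and 111 and 125 CPM with SAH against 96.9 CPM with vehicle in lymph node. SAH was above vehicle within each organ in both cell types, and across organs in Tcon. The log2 change was 0.22, adjusted p = 0.335 in Treg and 0.36, adjusted p = 0.0524 in Tcon by limma. Trib3, a pseudokinase that holds back ATF4 and CHOP, was at 3.19 to 4.20 CPM in SAH and 4.03 to 4.18 CPM in vehicle libraries of Treg, and at 7.12 to 7.97 CPM in SAH and 6.19 to 6.40 CPM in vehicle libraries of Tcon, and was not called (-0.10 in Treg, 0.22 in Tcon).

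The smallest adjusted p of the 36 genes with SAH in Tcon was that of a transporter. Slc7a5 encodes LAT1, the carrier of leucine and other large neutral amino acids. Slc7a5 in Treg stood at 59.3 and 53.6 CPM with SAH against 51.9 CPM with vehicle in spleen, and 70.6 and 70.8 CPM with SAH against 57.6 CPM with vehicle in lymph node. In Tcon, Slc7a5 stood at 64.5 and 66.4 CPM with SAH against 45.6 CPM with vehicle in spleen, and 79.6 and 79.0 CPM with SAH against 49.0 CPM with vehicle in lymph node. All Tcon SAH libraries were well above both vehicle libraries, lymph node more than spleen, and in Treg SAH was above vehicle within each organ but not across organs. Slc7a5 rose 1.51-fold in Tcon (log2 change 0.60, 95% interval 0.46 to 0.73, limma adjusted p = 0.00216), ranging from 0.51 to 0.68 on the log2 scale when 1 library was left out, and was 1.15-fold of vehicle in Treg (log2 change 0.20, 95% interval 0.07 to 0.34, limma adjusted p = 0.417). Slc7a5 lies at chr8:121881150-121907694 on the minus strand.

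Slc38a2, or SNAT2, which imports small neutral amino acids with sodium, rose in Tcon. Treg values of Slc38a2 were 782 and 782 CPM with SAH against 777 CPM with vehicle in spleen, and 692 and 767 CPM with SAH against 693 CPM with vehicle in lymph node. Tcon values of Slc38a2 were 1202 and 1311 CPM with SAH against 839 CPM with vehicle in spleen, and 1161 and 1269 CPM with SAH against 1024 CPM with vehicle in lymph node. Tcon SAH libraries were all above vehicle, with a wide gap in spleen and a narrower one in lymph node, and Treg SAH libraries overlapped vehicle. The Tcon rise was 1.33-fold (log2 change 0.41, 95% interval 0.23 to 0.59, limma adjusted p = 0.0478), and the Treg change was 0.04, adjusted p = 0.964. The Tcon call held in 4 of the 8 other settings that kept all libraries and was lost with limma-voom. Without spleen vehicle library 4 the Tcon log2 change was 0.25 (limma adjusted p = 0.419).

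Slc3a2 encodes the 4F2 heavy chain that carries SLC7A5 to the membrane. Slc3a2 measured in Treg 208 and 197 CPM with SAH against 191 CPM with vehicle in spleen, and 180.4 and 173 CPM with SAH against 154 CPM with vehicle in lymph node. In Tcon, Slc3a2 measured 226 and 225 CPM with SAH against 200.3 CPM with vehicle in spleen, and 242 and 235 CPM with SAH against 179.6 CPM with vehicle in lymph node. Each SAH library was above the vehicle library of its organ in both cell types, and the changes did not pass (Treg 0.14, adjusted p = 0.562; Tcon 0.29, adjusted p = 0.0599, by limma). The other 3 transporters were not called: the log2 change of the cystine carrier Slc7a11 was 0.14 in Treg and 0.25 in Tcon, that of the glutamine carrier Slc1a5 was 0.08 in Treg and 0.09 in Tcon, and that of Slc7a6, another partner of SLC3A2, was -0.04 in Treg and 0.03 in Tcon.

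The 4 enzymes of serine and one-carbon synthesis were not called in either cell type, though in Tcon all 4 had an unadjusted p below 0.05, with log2 changes of 0.24 to 0.28 (0.04 to 0.22 in Treg). Psat1, the aminotransferase of the serine pathway, stood in Treg at 38.8 and 30.5 CPM with SAH against 29.7 CPM with vehicle in spleen, and 44.6 and 45.1 CPM with SAH against 38.1 CPM with vehicle in lymph node. In Tcon, Psat1 stood at 29.2 and 24.8 CPM with SAH against 23.6 CPM with vehicle in spleen, and 32.8 and 29.7 CPM with SAH against 25.1 CPM with vehicle in lymph node. SAH exceeded the vehicle library of its organ each time, and spleen SAH library 6 was the lower of its pair in both cell types, close to vehicle. The log2 change of Psat1 was 0.22, adjusted p = 0.569 in Treg and 0.24, adjusted p = 0.209 in Tcon in the limma fit. Phgdh, the first enzyme of that pathway, stood at a log2 change of 0.12 in Treg and 0.26 in Tcon. Shmt2, which makes glycine and a one-carbon unit in mitochondria, was at 0.04 in Treg and 0.24 in Tcon, and Mthfd2, the next enzyme of the mitochondrial folate route, at 0.10 in Treg and 0.28 in Tcon.

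Of the 12 cytosolic tRNA synthetases, each of which loads its amino acid on tRNA, 1 rose in Tcon and none was called in Treg, and 8 had an unadjusted p below 0.05 in Tcon and 3 in Treg, all higher. Iars, the isoleucyl enzyme, was in Treg at 69.4 and 60.6 CPM with SAH against 57.5 CPM with vehicle in spleen, and 66.3 and 64.6 CPM with SAH against 65.6 CPM with vehicle in lymph node. In Tcon, Iars was at 74.4 and 73.0 CPM with SAH against 62.5 CPM with vehicle in spleen, and 91.4 and 87.3 CPM with SAH against 70.0 CPM with vehicle in lymph node. Tcon SAH libraries were all above vehicle, and Treg SAH libraries were above it in spleen only. Iars rose 1.22-fold in Tcon (log2 change 0.29, 95% interval 0.17 to 0.42, limma adjusted p = 0.0469), and the Treg change was 0.08, or -0.0047 without spleen vehicle library 4. Its Tcon call held in 5 of the 8 other settings that kept all libraries and was lost with limma-voom. The remaining 11 had log2 changes in Tcon from -0.01 for the tryptophanyl enzyme Wars to 0.33 for the cysteinyl enzyme Cars (limma adjusted p = 0.0599), with 0.32 for the alanyl enzyme Aars, 0.23 for Mars (methionyl), 0.22 for Sars (seryl), 0.21 each for Nars (asparaginyl) and Tars (threonyl), 0.17 for Gars (glycyl), 0.14 for Yars (tyrosyl), 0.12 for Lars (leucyl) and 0.08 for Eprs (glutamyl-prolyl). In Treg the same 11 lay between -0.00 (Eprs) and 0.19 (Aars, adjusted p = 0.426). Of the 5 genes with a C/EBP-ATF element in the printed promoters, limma called none with SAH in either cell type. It called 1.04% of all genes in Tcon and 0.202% in Treg. The authors' deposited comparison called Herpud1 (FDR 0.000646), Aars (0.024) and Tars (0.0413) higher in Tcon, and not Slc7a11 (0.0716) or Gars (0.264). It called 3.21% of all Tcon genes, and none of these 5 genes in Treg.

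**Figure D3:**
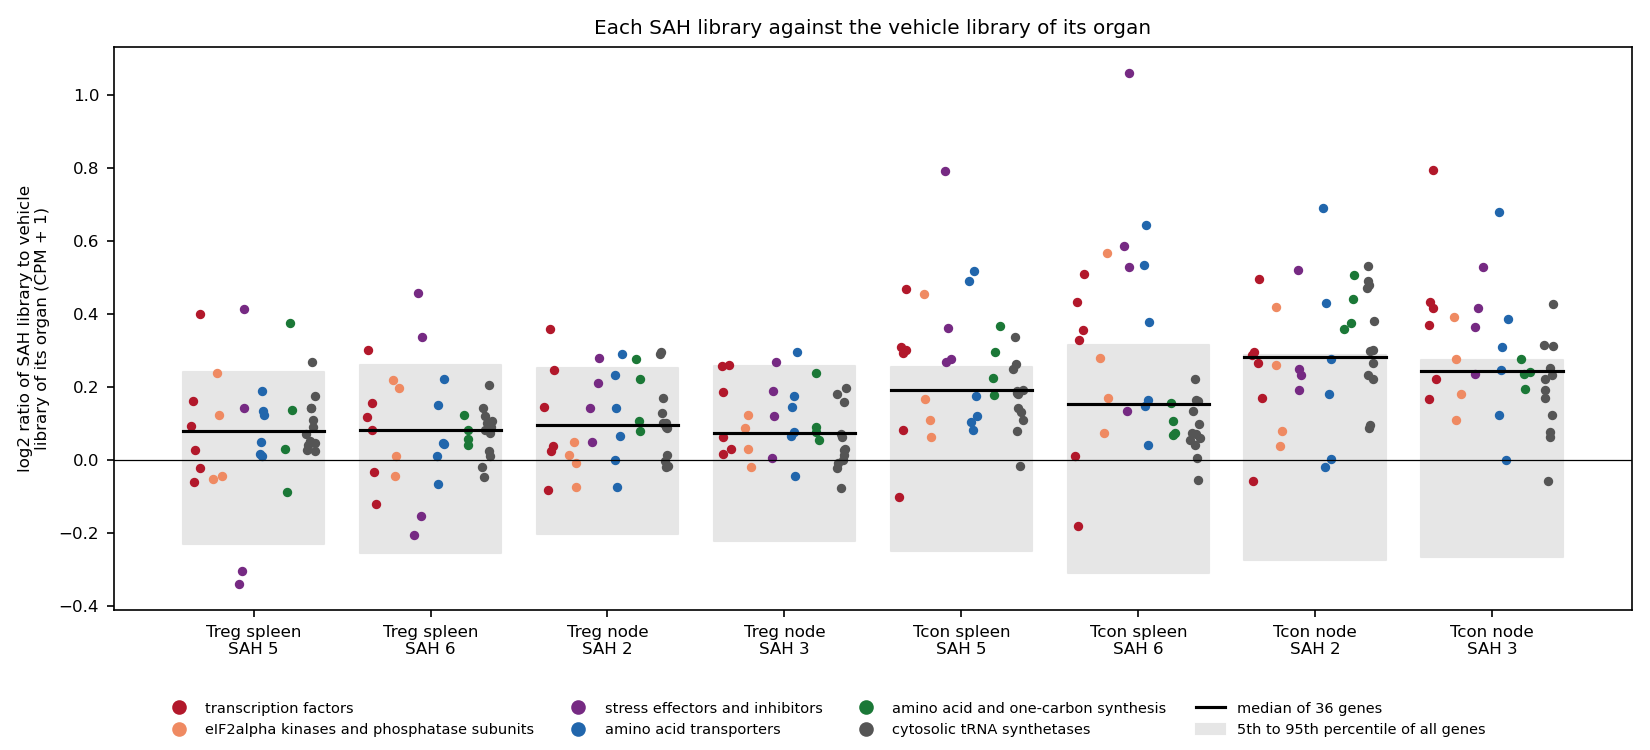
Log2 ratio of each SAH library to the vehicle library of its organ for the 36 genes, coloured by role, Treg libraries left of Tcon libraries. The black line is the median of the 36 and the grey band runs from the 5th to the 95th percentile of all genes of that library. Medians are 0.07 to 0.09 in the 4 Treg libraries and 0.15 to 0.28 in the 4 Tcon libraries.

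Set against the vehicle library of its organ, every Tcon SAH library had 34 of the 36 genes higher, and the Treg libraries had 28 to 30. Of all genes, 47.6% to 51.1% were higher in the Tcon libraries and 49.7% to 52.8% in the Treg libraries. The ratios of libraries from 1 organ share a vehicle library and are not independent. The roles were not spread evenly over Tcon libraries. The synthetases had a median log2 ratio of 0.181 in spleen SAH library 5 and 0.0724 in library 6, and of 0.299 in lymph node SAH library 2 and 0.206 in library 3. The serine and one-carbon enzymes went the same way, with 0.258 in library 5 and 0.0908 in library 6, and 0.407 in library 2 and 0.238 in library 3. The stress effectors went the other way, with 0.319 in library 5 and 0.556 in library 6, and 0.24 in library 2 and 0.39 in library 3. The other 3 roles went with the stress effectors. Transporters had 0.148 in library 5 and 0.271 in library 6, and 0.228 in library 2 and 0.278 in library 3. Transcription factors had 0.296 in library 5 and 0.342 in library 6, and 0.277 in library 2 and 0.392 in library 3, and the eIF2alpha kinases and phosphatase subunits 0.138 and 0.223 in spleen, and 0.17 and 0.229 in lymph node. Libraries 2 and 5 were thus the higher of their pairs for 2 of the 6 roles and libraries 3 and 6 for 4, which is a description with 2 libraries in each organ.

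Immediate-early genes, which cells switch on within minutes of stimulation, were read beside the members. All 12 of the list were listed in both tables, and in Tcon all 12 had a positive change with SAH (48.9% of all genes). At an unadjusted p below 0.05, 10 of the 12 were higher (7.89% of all genes). Nr4a1 alone was called (log2 change 0.42, limma adjusted p = 0.0227), where 0.88% of all genes were called higher. The summed level of the 12 in Tcon was 7044 and 7694 CPM in the spleen SAH libraries against 5173 CPM in spleen vehicle. In lymph node it was 5254 and 6750 CPM in the SAH libraries against 5125 CPM in vehicle. In lymph node SAH library 2, the one closest to vehicle in this sum, 9 of the 12 genes were above vehicle, among them Nr4a1 (550.6 against 418.6 CPM), and Junb (1266 against 1397 CPM), Fosb (206.4 against 297.0 CPM) and Jun (544.5 against 599.3 CPM) were below. In Treg the sum was 11160 and 12280 CPM in spleen SAH against 10560 CPM in spleen vehicle, and 9202 and 9505 CPM in lymph node SAH against 9202 CPM in lymph node vehicle, and 9 of 12 had a positive change, none called. Cell cycle genes in Treg were all above 0 with SAH too (12 of 12, none called, median log2 change 0.14), with sums of 433.2 and 442.5 CPM in spleen SAH against 418.9 CPM in spleen vehicle, and 490.3 and 494.5 CPM in lymph node SAH against 438.0 CPM in lymph node vehicle. In Tcon 3 of 8 listed cell cycle genes were above 0. Of all genes, 51.8% in Treg and 48.9% in Tcon were above 0. What part the immediate-early and cell cycle genes have in the members' values was not tested.

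Other genes of the same pathways were read from 8 further lists, whose differences from the 36 were not tested. Of 9 other listed ATF4 targets 1 rose, Got1 (aspartate aminotransferase, log2 change 0.58, limma adjusted p = 0.0166), and the median was 0.17. None was called in Tcon of 12 other amino acid transporters (median log2 change 0.02), 16 eIF2 and eIF2B genes and their regulators (0.01), 26 genes of the endoplasmic reticulum unfolded protein response (-0.01), 11 other cytosolic synthetases and scaffold genes (0.03), 17 mitochondrial synthetases (0.06), 10 other one-carbon genes (0.06) and 22 genes of amino acid sensing by mTORC1 (-0.01), beside a median of -0.00 over all genes. In Treg no gene of these 8 lists was called, with list medians from -0.04 to 0.08. Of all genes, 1.04% were called with SAH in Tcon and 0.202% in Treg.

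Whether the peptide acted differently in spleen and lymph node was asked with an interaction term. None of the 36 genes was called in Treg (0.00961% of all genes called) or in Tcon (0.0% of all genes called), and limma-voom also called none of the 36, with the same shares of all genes. At an unadjusted p below 0.05 there were 3 genes in Treg, Xbp1, Ddit4 and Sesn2 (2.41% of all genes), and 4 in Tcon, Xbp1 and the 3 that follow (5.1% of all genes). In Tcon, Ddit4 and Slc38a2 had the larger change in spleen (spleen minus lymph node 0.60 and 0.33 on the log2 scale, limma adjusted p = 0.913 each), and Slc3a2 the smaller (-0.24, 0.913). All 12 synthetases and all 4 serine and one-carbon enzymes had the smaller change in spleen in Tcon, with medians of the difference of -0.11 and -0.14 beside -0.01 over all genes, none past the threshold.

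Whether the peptide acted differently in Treg and Tcon was asked in 1 limma model of all 12 libraries over the 9784 genes in both tables. None of the 36 genes, and no other gene (0.0%), was called by limma or by limma-voom. The SAH effect in Treg minus that in Tcon was negative for 34 of the 36, with a median of -0.14 on the log2 scale beside 0.00 over all genes, of which 51.5% were positive. At an unadjusted p below 0.05, 9 of the 36 were negative, and 2.58% of all genes were. Treg and Tcon libraries of the same number varied together in these data (correlation of their deviations 0.556 in spleen and 0.438 in lymph node over genes). With library number as a block 5 genes passed, all with the smaller effect in Treg, where 0.777% of all genes were called. They were Slc7a5 (-0.39, 95% interval -0.53 to -0.25, adjusted p = 0.00715), Atf4 (-0.28, 95% interval -0.40 to -0.17, adjusted p = 0.0166), Ppp1r15a (-0.33, 95% interval -0.47 to -0.19, adjusted p = 0.0166), Slc38a2 (-0.37, 95% interval -0.54 to -0.21, adjusted p = 0.0279) and Sesn2 (-0.49, 95% interval -0.72 to -0.27, adjusted p = 0.0346), by limma with the block. Without the block their adjusted p-values were 0.327 to 0.761, so the call rests on whether the numbers pair the libraries, which the labels do not say. Of the immediate-early genes, 11 of 12 had a negative difference (median -0.34, none called without the block).

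**Figure D4:**
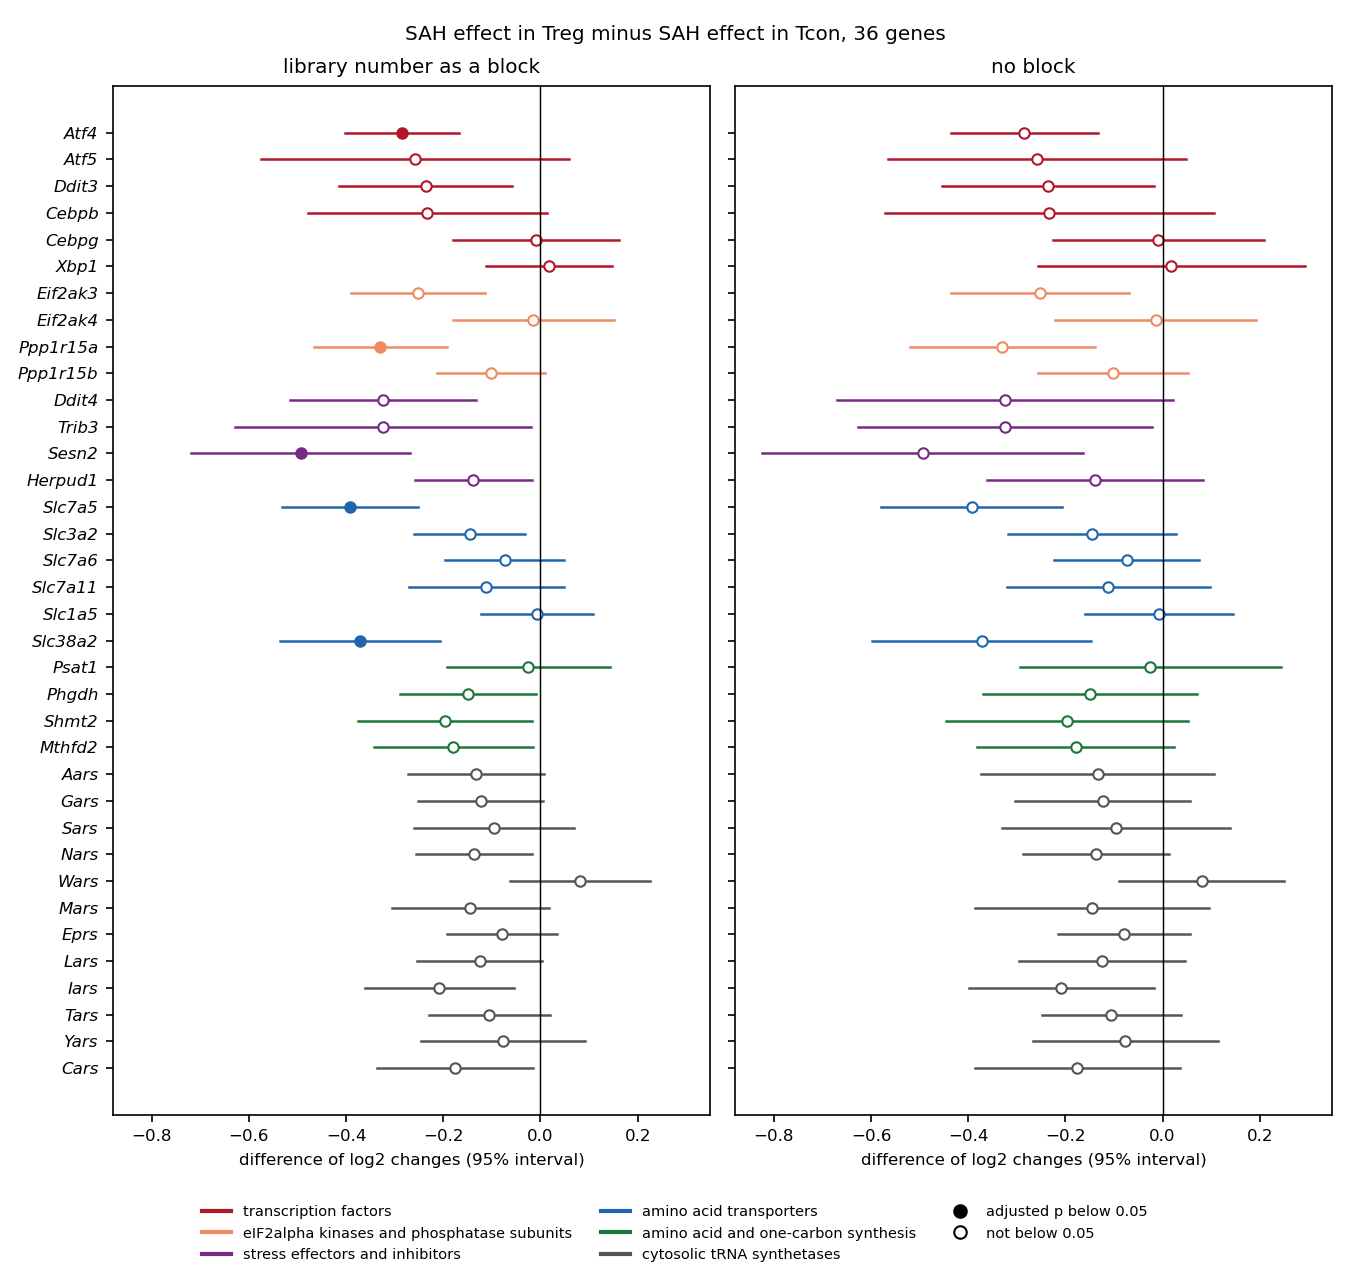
SAH effect in Treg minus SAH effect in Tcon on the log2 scale for the 36 genes, with 95% intervals, with library number as a block on the left and without it on the right. The estimates are the same and 34 lie below 0; 5 are filled (adjusted p below 0.05) with the block and none without.

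Spleen was also set against lymph node, over both treatments. In Treg, 8 genes were higher and 6 lower in spleen, 38.9% of the 36, where 14.7% of all genes were called, 8.71% as higher and 6.01% as lower. In Tcon, only Iars was called, lower in spleen, where 4.73% of all genes were called, 1.46% as lower. Genes of the eIF2alpha kinases and phosphatase subunits were higher in spleen Treg, 3 of 4, and serine and one-carbon genes lower, 3 of 4, while none of the 12 synthetases was called. All 3 spleen libraries lay above all 3 lymph node libraries for 8 genes in Treg (16.8% of all genes) and below for 5 (15.1% of all), and in Tcon for 0 (10.0%) and 1 (Slc7a6, 9.33%).

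Cebpb had the largest organ change. In Treg, Cebpb held 27.9, 26.0 and 20.9 CPM in spleen against 14.6, 15.9 and 13.1 CPM in lymph node (the last value of each 3 being vehicle), and in Tcon 14.8, 15.2 and 10.4 CPM in spleen against 11.1, 16.4 and 9.07 CPM in lymph node. The Treg groups did not overlap and the Tcon groups overlapped. It was 1.66-fold higher in spleen Treg (log2 change 0.73, 95% interval 0.57 to 0.89, limma adjusted p = 1.19e-05) and 1.11-fold in spleen Tcon (log2 change 0.15, 95% interval -0.11 to 0.41, limma adjusted p = 0.582). Cebpb is also a gene of myeloid cells, and the listed myeloid and dendritic markers (7 of 10) summed in Treg to 78.6 to 117.4 CPM in spleen libraries against 33.9 to 38.0 CPM in lymph node libraries, all 7 called higher in spleen. In Tcon 4 of the 10 were listed, at 44.9 to 51.8 CPM in spleen and 23.6 to 25.5 CPM in lymph node libraries. B cell markers (5 of 10 listed in Treg) summed in Treg to 89.4 to 118.3 CPM in spleen and 57.9 to 72.1 CPM in lymph node libraries. Red cell markers (2 of 7 listed in Treg) summed in Treg to 10.7 to 138.5 CPM in spleen and 0.626 to 0.849 CPM in lymph node libraries. The plasma cell marker Jchain read 72.1 to 119.9 CPM in spleen and 0.147 to 0.849 CPM in lymph node libraries of Treg (log2 change 6.03, limma adjusted p = 7.54e-11), while Txndc5 was not called and Derl3 was lower in spleen. In Tcon, spleen vehicle library 4 also differed from spleen SAH libraries 5 and 6. Its CD8 and natural killer markers (4 of 8 listed) summed to 79.3 CPM, against 53.8 and 55.9 CPM. Its B cell markers (4 of 10 listed) summed to 46.0 CPM, against 28.5 and 35.1 CPM. Myeloid and dendritic markers went the other way, at 44.9 CPM against 51.8 and 47.7 CPM. The part of such cells in the organ changes and in the SAH changes of Tcon was not tested.

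The stress genes higher in spleen Treg were, besides Cebpb, Ppp1r15a (0.30, adjusted p = 0.00305), Eif2ak3 (0.28, adjusted p = 0.00188), Herpud1 (0.24, adjusted p = 0.0142), Ppp1r15b (0.23, adjusted p = 0.00602) and Atf4 (0.20, adjusted p = 0.0103), with the carriers Slc3a2 (0.23, adjusted p = 0.00479) and Slc1a5 (0.15, adjusted p = 0.0423), all log2 changes with limma's adjusted p. Of the immediate-early list 8 of 12 were called higher in spleen Treg too, and their summed level was 10560 to 12280 CPM in spleen and 9202 to 9505 CPM in lymph node libraries. Lower in spleen Treg were Ddit4, Psat1, Phgdh, Shmt2, Slc7a5 and Slc7a6. Ddit4 measured in Treg 56.8, 58.7 and 42.5 CPM in spleen against 73.4, 68.9 and 63.3 CPM in lymph node, the last of each 3 being vehicle, and the organs did not overlap (log2 change -0.39, 95% interval -0.52 to -0.25, limma adjusted p = 0.000749). Psat1 measured in Treg 38.8, 30.5 and 29.7 CPM in spleen against 44.6, 45.1 and 38.1 CPM in lymph node, and the groups overlapped by 1 library, spleen SAH library 5 lying just above the lymph node vehicle (log2 change -0.37, 95% interval -0.53 to -0.20, limma adjusted p = 0.00478). The others fell by 0.19 to 0.27 on the log2 scale in spleen (limma adjusted p from 0.00523 for Shmt2 to 0.0209 for Slc7a6). Of 12 cell cycle genes 3 were lower in spleen Treg too, Mcm5 (log2 change -0.39, limma adjusted p = 0.00036), Top2a (-0.30, 0.0214) and Mcm3 (-0.22, 0.0191), and 0 higher, with sums of 418.9 to 442.5 CPM in spleen and 438.0 to 494.5 CPM in lymph node libraries. Their part in the lower members was not tested.

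Pathway genes outside the 36 also differed between the organs in Treg, where 8.71% of all genes were called higher and 6.01% lower in spleen. Of 13 other ATF4 targets 4 were higher in spleen, led by Atf3, a stress factor that is also immediate-early (log2 change 1.59, limma adjusted p = 3.36e-08), Got1 (0.58, 0.000121) and the autophagy receptor Sqstm1 (0.38, 0.000132), and 3 were lower, the branched-chain aminotransferase Bcat1 (-0.74, 0.000172), Aldh18a1 of proline synthesis (-0.23, 0.00729) and the arginine carrier Slc7a1 (-0.19, 0.014). Of 27 genes of the unfolded protein response 7 were higher, led by the stress sensor Ern1 (0.34), the chaperone Hspa5 (0.28) and its partner Dnajb9 (0.26), and Derl3 was lower (-0.76). Of 11 other one-carbon genes Shmt1 (-0.41) and Mthfd1 (-0.24) were lower, and none was higher. Of 22 genes of amino acid sensing 1 was higher, Sesn1 (0.25), and 2 were lower, Wdr59 (-0.27) and Sesn3 (-0.22). Of 16 eIF2 and eIF2B genes and regulators 2 were higher, Impact (0.35) and Dnajc3 (0.15), and of 13 other transporters Slc43a1 was higher (0.63) and Slc7a1 lower. None of the 11 other cytosolic and 17 mitochondrial synthetases was called. In Tcon, where 4.73% of all genes were called, the 8 lists held 4 calls. Atf3 (1.30), Atf6 (0.40) and Hspa5 (0.24) were higher in spleen and Gcsh, of the glycine cleavage system, was lower (-0.34).

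**Figure D5:**
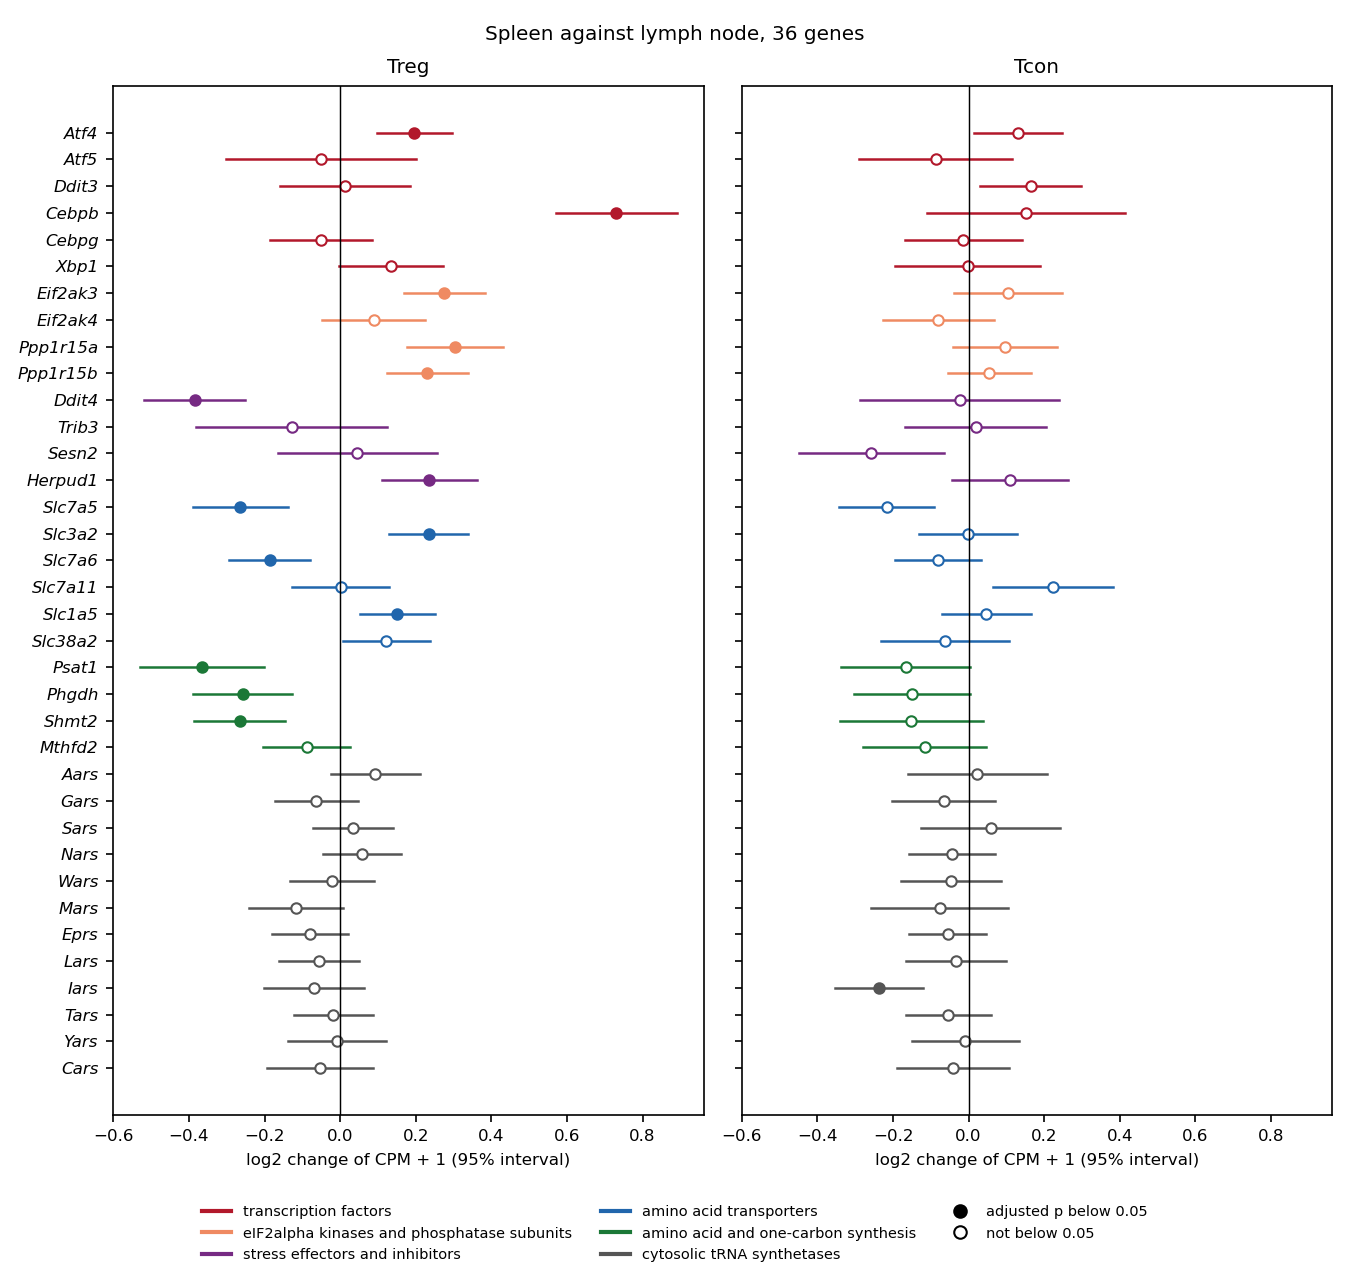
Log2 change of CPM + 1 in spleen against lymph node for the 36 genes, Treg left and Tcon right, with 95% intervals, coloured by role and filled where the adjusted p was below 0.05. In Treg 8 filled points lie above 0, led by Cebpb at 0.73, and 6 below, led by Ddit4 at -0.39; in Tcon the only filled point is Iars at -0.24.

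The Treg organ count was 8 without spleen vehicle library 4 (7.58% of all genes called), 5 without lymph node SAH library 2 (7.38%) and 8 without lymph node vehicle library 1 (7.53%), so the share of all genes fell below 14.7% as well. Cebpb, Ddit4, Eif2ak3 and Ppp1r15a were called in all 6 such fits. Iars in Tcon stood at 74.4, 73.0 and 62.5 CPM in spleen against 91.4, 87.3 and 70.0 CPM in lymph node, with spleen SAH above the lymph node vehicle, and its fall in spleen (log2 change -0.24, 95% interval -0.35 to -0.12, limma adjusted p = 0.0316) was not called in any of the 6 fits that left a library out, where it ran from -0.27 to -0.21 on the log2 scale. The difference of the organ effect between the cell types was called for none of the 36 genes (1.46% of all genes called, and 6 of the 36 and 12.2% of all genes at an unadjusted p below 0.05; limma-voom also called none of the 36 and 1.52% of all). With library number as a block 5 passed, where 7.19% of all genes were called: Cebpb (0.58, 95% interval 0.35 to 0.81, adjusted p = 0.00311), Slc3a2 (0.24, 95% interval 0.13 to 0.34, adjusted p = 0.00824), Ppp1r15a (0.21, 95% interval 0.08 to 0.34, adjusted p = 0.0482) and Ppp1r15b (0.18, 95% interval 0.07 to 0.28, adjusted p = 0.04), more spleen-biased in Treg, and Ddit4 (-0.36, 95% interval -0.54 to -0.18, adjusted p = 0.0148), less so, by limma with the block.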

How the data were processed

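Stranded mRNA libraries (an Illumina TruSEQ kit, per the labels' protocols) were sequenced. TopHat, Bowtie, edgeR and genome build mm10 are named, without versions, in the submitters' processing notes. Annotation and counter: not given in the sources used here. For each cell type the authors deposited 1 table of a normalized signal, called CPM per the file headers; column sums ran from 971928 to 1021430, so the scaling differed by library. The deposited log2 fold changes and the p-values (FDR) are the authors' own comparison of SAH with vehicle. Low values were whole multiples of 1 read (100% within 0.1 read), which gave the depths. Genes at low level are left out of the tables: all listed genes reach a third-highest value of at least 1.97 CPM.

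Values were analysed as log2(CPM + 1), a scale that understates changes of low genes, with limma 3.58.1 in R 4.3.3 (linear model, empirical Bayes with intensity trend, two-sided, Benjamini-Hochberg over all genes of a table). The SAH and organ fits had 3 residual degrees of freedom, the organ interaction 2, the 12-library model 6, and 3 with library number as a block. Library numbers are shared by 1 Treg and 1 Tcon library each, and the labels do not say what a number marks. The pairing was taken from the data, where the difference between the 2 SAH libraries correlated between Treg and Tcon (1 comparison in each organ). The vehicle libraries were not part of that check. Annotation was GENCODE for mm10, with levels per kilobase over the union of all annotated exons, which can include rarely used ones; Ddit3 has 2 annotated genes of that name and was given neither length nor coordinates. The script was tested on simulated data. The members and lists were chosen with earlier results of these data known. Values in every library are given for members called with SAH, the 3 largest organ changes called in each cell type and, up to 12, the smallest p with SAH. Alternatives were pseudocounts, a filter, scalings, single symbols, no trend, each library left out, and limma-voom on the recovered reads. Python 3.11.15 and pandas 2.3.3 were used.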

Additional observations from a re-analysis of the deposited data

Results flagged for a closer look

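In 10 cases the effect differed between the cell types in the model with library number as a block, by limma with Benjamini-Hochberg adjustment, while none did without the block. For the SAH effect in Treg minus Tcon these were Atf4 (-0.28, adjusted p = 0.0166), Ppp1r15a (-0.33, 0.0166), Sesn2 (-0.49, 0.0346), Slc7a5 (-0.39, 0.00715) and Slc38a2 (-0.37, 0.0279). For the spleen against lymph node difference in Treg minus Tcon they were Cebpb (0.58, 0.00311), Ppp1r15a (0.21, 0.0482), Ppp1r15b (0.18, 0.04), Ddit4 (-0.36, 0.0148) and Slc3a2 (0.24, 0.00824). With the block, 0.777% of all genes were called for the SAH effect and 7.19% for the organ difference.

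In 8 cases both SAH libraries lay on one side of vehicle in spleen and on the other in lymph node. The spleen minus lymph node difference of the SAH effect, by limma's interaction term, was in Treg -0.34 for Xbp1, -0.12 for Ppp1r15b, -0.26 for Trib3, -0.51 for Sesn2, 0.10 for Lars and 0.15 for Yars (adjusted p = 1.0 each). In Tcon it was -0.41 for Xbp1 (adjusted p = 0.913) and 0.083 for Slc7a6 (0.946). None of these passed the test. How many of all genes lay on opposite sides in this way was not counted, so the cases are only a description of these genes.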

How the results depend on the processing

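In Tcon, the number of the 36 genes called with SAH was 7 in the analysis as reported, 1 without the intensity trend, 4 with every library scaled to one total, 4 with limma-voom (added after seeing the data) and 1 to 10 with 1 library left out; the number above 0 was 34 to 36 and their median 0.19 to 0.29 in all 14 settings. In Treg it was 0 throughout except for the fits that left out 1 library, 0 to 3. For spleen against lymph node it was 8 in Treg without the trend and 5 to 14 with 1 library left out, and in Tcon 2 with that scaling, 0 without the trend and 0 with any 1 library left out. With the replicate block on library number, 5 genes were called for the SAH effect and 5 for the organ difference in Treg minus Tcon, against 0 for each without it; leaving out 1 library gave 0 to 1 for the organ difference. Sesn2 in Treg reversed to 0.23 and 0.05 without spleen vehicle library 4 and spleen SAH library 5, and Iars in Treg to -0.0047 without spleen vehicle library 4; over all such fits they ran from -0.27 to 0.23 and from -0.0047 to 0.17. The causes were not tested, apart from the loss of samples in those fits. The fits with the block called 0.777% of all genes for the SAH effect and 7.19% for the organ difference. Of 546 values of single genes under an alternative, 455 kept their direction and side of the threshold, 79 lost the call, 9 gained it and 3 reversed. The 455 include genes not called as reported, which had no call to lose. Every gene taken with SAH in Treg was of this kind, so the 455 do not measure how well the calls held.

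Each organ had 1 vehicle library, so a leave-out of it gives the SAH effect of the other organ alone, and the organ interaction could not be fitted then. The planned edgeR test was not run, and limma-voom on the recovered reads took its place. Depth was ample for these genes, with 1 read worth at most 0.0267 CPM. The SAH and organ fits had only 3 residual degrees of freedom. Empirical Bayes drew the variance of each gene towards the trend over all genes, so the intervals and p-values lean on that trend.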
